A study of Mus musculus with 7 samples.

Results

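The histone genes measured in mouse brain were taken as all rows of the deposited table whose gene symbol begins with Hist1h to Hist4h, H1f, H2af or H3f, averaging at least 3 across the 7 libraries on the deposited scale and without a pseudogene suffix. The rule kept 25 of 48526 genes: 14 replication-dependent genes (symbols beginning with Hist), 10 genes of histone variants, and H3f3aos, an antisense RNA opposite H3f3a that carries the prefix by name and is kept apart. RNA came from mice of 24 months that carry the V1S and SV2 constructs, in which α-synuclein is joined to parts of the fluorescent protein Venus. Of the 7 libraries, 4 are labelled on and Glucose and 3 are labelled off and Dox, the common short name of doxycycline. All 7 share the constructs, the label DT Venus, the age and the tissue label brain. The labels and notes used here name neither the promoter of the constructs nor the brain region, and do not say that the libraries come from different animals, so the spread that p-values here rest on may be technical. The state of the constructs and doxycycline change together and cannot be told apart.

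Histones are the proteins around which DNA is wrapped. The core histones H2A, H2B, H3 and H4 form the nucleosome, and the linker histone H1 binds where DNA enters and leaves it. Replication-dependent genes lie in clusters, are transcribed mainly while DNA is copied, and give mRNAs that end at a short stem-loop bound by the protein SLBP in place of a poly(A) tail, although some of them also give mRNAs with a tail in cells that do not divide. Variant histones come from genes scattered over the genome, and most of their mRNAs carry a poly(A) tail. In neurons, which no longer divide, variant histones replace the replication-dependent forms over time.

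Libraries were made with a kit that selects RNA with a poly(A) tail, so the stem-loop and what follows it in the annotated transcript are shown first, for the genes that hold one. The search was for the histone stem-loop consensus on the sense strand of each gene's longest transcript in GENCODE M21, on GRCm38. The motif was found in 11 of the 14 replication-dependent genes and in the variant gene H2afx, against 18 of 17831 tested genes with a transcript in all. The stem-loop is in capitals, 5′ to 3′ on the sense strand, with 5 bases on each side.
Hist1h1c: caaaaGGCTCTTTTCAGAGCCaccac
Hist1h1e: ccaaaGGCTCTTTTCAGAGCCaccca
Hist1h2be: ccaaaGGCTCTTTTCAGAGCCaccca
Hist3h2a: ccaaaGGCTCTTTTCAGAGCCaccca
Hist3h2ba: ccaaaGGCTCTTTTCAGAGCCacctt
Hist1h4i: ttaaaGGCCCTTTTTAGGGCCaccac
Hist1h4j: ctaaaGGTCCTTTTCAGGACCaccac
H2afx: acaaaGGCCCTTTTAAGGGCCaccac
The capitals were the same in 7 of the 12 genes, of which the first 5 lines are examples, and 5 distinct forms were found in all. The lines of Hist1h4i, Hist1h4j and H2afx are 3 of the other forms.

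In most of these genes the annotated transcript runs past the stem-loop. Among the 11 replication-dependent genes with a stem-loop, a median of 385 bases followed it, the lowest being 46 bases in Hist1h4h and the highest 1861 bases in Hist1h2be. A poly(A) signal (AATAAA or its common variant ATTAAA, sense strand) lay in the last 50 bases of the transcript in 9 of the 14 replication-dependent genes (64.3%). Over 100 bases followed the stem-loop in 10 of the 14 (71.4%). The other 53 replication-dependent genes in the table, whose mean was under 3 or which were listed at 0, held the signal in 7 cases (13.2%) and over 100 bases after the stem-loop in 12 (22.6%). These shares describe the annotation and not the RNA in these brains. Neither feature was found in the transcripts of Hist1h2bc, annotated with 1156 bases, and Hist1h4k, annotated with 312 bases. In H2afx, 822 bases followed the stem-loop, which lies at chr9:44335240-44335255 on the plus strand without its flanks, and a poly(A) signal lay 35 bases before the end.

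**Figure D1:**
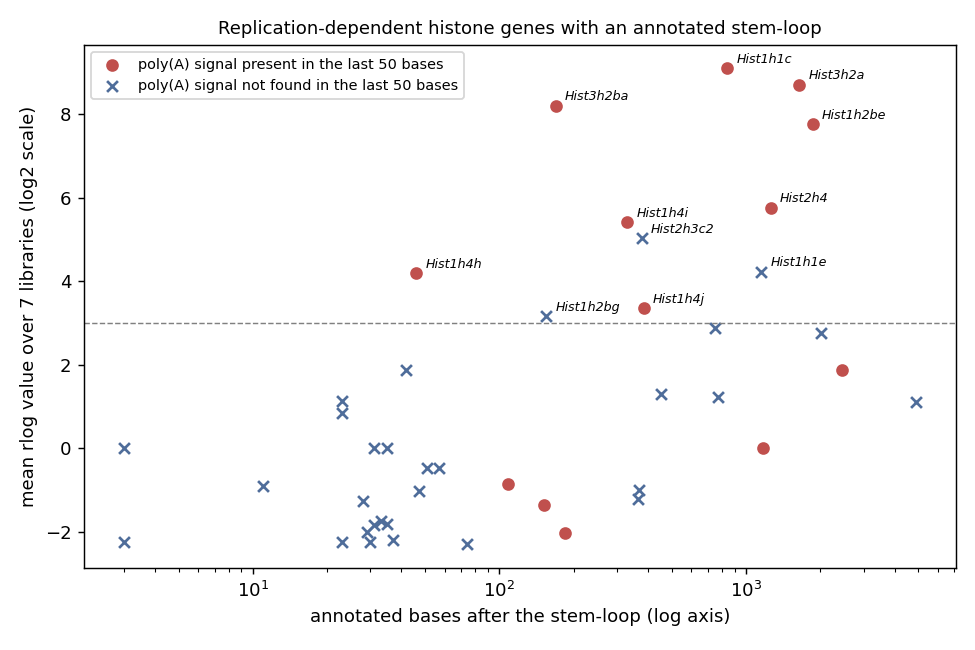
Each point is a replication-dependent histone gene with a stem-loop in its longest annotated transcript; the x axis gives the annotated bases after the stem-loop (log axis) and the y axis the mean rlog value over 7 libraries (log2 scale). Named genes lie above the dashed line at 3. Of the 11 named genes 8 also hold a poly(A) signal in the last 50 bases.

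The table holds rlog values, a log2-scale transformation of counts in which a gene with few reads is drawn towards its own mean. Of 85 rows that match by name, 60 were not kept: 49 had a mean under 3 and 11 were listed at 0 in every library. These 60 were 53 replication-dependent genes and 7 variant genes. The nearest genes above the minimum were Hist1h2bg at a mean of 3.16, Hist1h4j at 3.35 and Hist1h4k at 3.64, and the nearest below it were Hist1h3d at 2.88, Hist1h2ac at 2.76 and Hist1h2bn at 1.99. By histone type the rule kept 5 of 16 replication-dependent H2B genes, 5 of 13 H4 genes, 2 of 6 H1 genes, 1 of 20 H2A genes and 1 of 12 H3 genes.

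Levels between genes are compared here only per length, as the mean rlog value minus the log2 of the length in kilobases of the longest annotated transcript. On that scale H3f3b, 1 of 2 genes for the variant H3.3, was highest at 11.47. Next were the linker histone gene H1f0 at 10.88 and H2afz at 10.87, which encodes H2A.Z, a variant placed near the starts of genes. The highest replication-dependent gene was Hist1h2bc, for an H2B, at 9.41, below H2afy at 9.49 and above H2afv at 9.17. The lowest of the 25 was Hist1h1e at 3.28. The only replication-dependent H3 gene kept, Hist2h3c2, stood at 5.01, against 9.08 for H3f3a. Of the 50-base windows of Hist2h3c2 63.5% also occur in transcripts of other genes, and 30.3% of those of H3f3a, so both counts are uncertain. On the per-length scale 9 of the 10 variants lay between 8.46 and 11.47 and the lowest, H2afy2, lay at 8.18. As the kit selects RNA with a poly(A) tail, mRNAs that end at the stem-loop may be missed. Levels of replication-dependent and variant genes are therefore not compared on equal terms.

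Markers of neurons, astrocytes, oligodendrocytes and microglia were present in all libraries, with group means of 7.25 to 17.1 rlog units. Of 5 markers each, 0 were called (by the test described with the differences) for neurons, astrocytes, oligodendrocytes, microglia, endothelium, choroid plexus and red blood cells. For olfactory sensory neurons and bulb 4 of 5 were called lower in on, against 1.79% of all tested genes. The mean deviation of those 5 markers was -0.26 to 0.00 in on libraries, against 0.16 to 0.27 in off libraries. Without on replicate 1, 2 markers of oligodendrocytes and 1 of microglia were also called lower and 3 of endothelium higher. In that fit 8.02% of all tested genes were called lower and 8.28% higher. Their part in the histone differences was not tested. In bulk RNA, fewer cells of a type and less RNA per cell cannot be told apart. The first principal component (47.7% of the variance) placed on replicate 1 at -4.10, inside the range of the off libraries (-8.64 to -3.56), whereas on replicates 2 to 4 were at 7.19 to 9.15.

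Differences in rlog value, on minus off, were fitted across 17896 genes with limma, with Benjamini-Hochberg adjustment over all of them at a threshold of 0.05. Of the 25 histone genes 3 were called lower in on and 0 higher (12% lower), where 1.79% of all tested genes were called lower, 0.816% higher and 2.6% in either direction. All 3 were variants: H1fx, H2afj and H2afx. Without on replicate 1, 7 histone genes were called lower and 0 higher, with H2afy, H2afz, Hist1h1c and Hist3h2ba added, where 8.02% of all tested genes were called lower and 8.28% higher. Without any other single library 1 or 2 histone genes were called lower, where 37 to 246 of 17896 tested genes were called lower. In 6 of the 25 genes (24%) every on library lay below every off library, against 8.09% of all tested genes, and 15.2% of tested genes had groups apart in either direction. The genes were selected on symbol and on their mean over all 7 libraries, with the differences of some, such as H1fx, already known, so these shares describe the group and support nothing. The median difference was -0.11 over the 10 variants, of which 9 were negative. Over the 14 replication-dependent genes it was -0.03, with 12 negative, and over all tested genes 0.0029. The replication-dependent median was -0.0424 over the 6 genes with a mean of 7 or more and -0.0265 over the 8 below 7. The lowest mean of a variant was 8.74 (H1fx). As rlog narrows differences at low values, the medians of the 2 classes are not on equal terms.

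H1fx encodes H1.10, a linker histone whose gene stands alone outside the clusters, at chr6:87980421-87981637 on the minus strand, with 1 exon. In on replicates 1 to 4 it measured 8.51, 8.59, 8.58 and 8.55 rlog units, against 9.04, 8.96 and 8.94 in off replicates 1 to 3. Every on library lay below every off library, and the gap between the groups was wider than the range within either. The means were 8.56 ± 0.03 in on (SD, n = 4) and 8.98 ± 0.05 in off (SD, n = 3), and the difference was -0.42 ± 0.05 (SE, limma adjusted p = 0.00105). H1fx passed with any 1 library left out, with differences of -0.44 to -0.39.

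The transcript of H1fx is short and rich in G and C, with 1217 bases and 71.3% GC, a GC content reached by 11 of 17831 tested genes including H1fx. Taken across genes, which share libraries and are no replicates, the rank correlation (Spearman's rho) between GC content and a library's deviations was 0.18, -0.46, -0.14 and -0.30 in on replicates 1 to 4, against -0.11, 0.23 and 0.58 in off replicates 1 to 3. On replicate 1 had the lowest H1fx and a positive rho with GC content, and off replicate 1 the highest H1fx and a negative one. With transcript length the rho was -0.06, 0.29, 0.29 and 0.27 in on replicates 1 to 4, against -0.32, -0.23 and -0.25 in off replicates 1 to 3. Every on library thus lay above every off library in its rho with length. The median transcript length of all tested genes was 3158 bases. After removal of each library's smooth trend with GC content and transcript length, the difference of H1fx was -0.10 ± 0.06 (SE, limma adjusted p = 0.435). With additive trends in place of a joint trend it was -0.18 ± 0.06 (SE, limma adjusted p = 0.18). H1fx was itself in these fits, and at its GC content the trend rests on few genes. The SE leaves out the uncertainty of the trend. As the rho with length set all on libraries apart from all off libraries, the correction can also remove differences between the groups. Why the difference of H1fx shrank was not tested. The antisense neighbour Gm5577, whose exons overlap those of H1fx on the other strand, differed by 0.04, and 14% of the 50-base windows of H1fx also occur in a transcript of Gm5577 on either strand. Gm47286, which was not tested, overlaps H1fx on the same strand, so the counts of H1fx are uncertain too.

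H2afj encodes H2A.J, an H2A variant known in human fibroblasts to accumulate when they stop dividing for good. It measured 9.20, 9.33, 9.23 and 9.25 in on replicates 1 to 4, against 9.46, 9.47 and 9.44 in off replicates 1 to 3. The off libraries lay close together and above all on libraries. The difference was -0.20 ± 0.05 (SE, limma adjusted p = 0.0371). With 1 library left out it stayed between -0.23 and -0.19 and passed in 2 of 7 fits, those without on replicate 1 or on replicate 2, with adjusted p from 0.0139 to 0.177. After the GC and length correction it was -0.14 ± 0.05 (SE, limma adjusted p = 0.192).

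H2afx encodes H2A.X, the variant that is phosphorylated around DNA breaks. Its values were 9.16, 9.19, 9.11 and 9.07 in on replicates 1 to 4, against 9.30, 9.35 and 9.34 in off replicates 1 to 3. The groups did not overlap. The difference was -0.19 ± 0.05 (SE, limma adjusted p = 0.0479). It passed in 1 of 7 fits with 1 library left out, that without on replicate 1, with adjusted p from 0.0118 to 0.214. The transcript holds 62.3% GC, and after the correction the difference was -0.03 ± 0.04 (SE, limma adjusted p = 0.772).

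**Figure D2:**
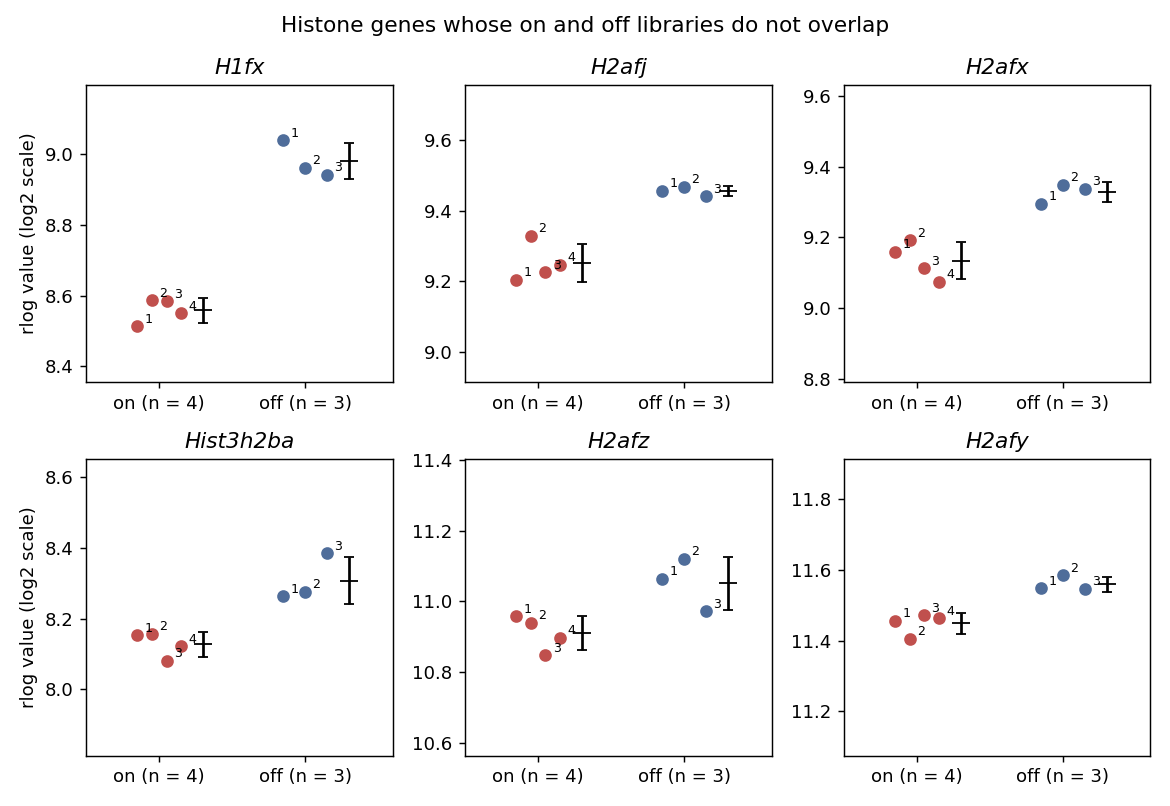
Points are libraries, numbered by replicate, with rlog values on the y axis (log2 scale, the same span in every panel) for the 6 histone genes whose on (left, n = 4) and off (right, n = 3) libraries do not overlap; the black bar is the mean ± SD. H1fx has the widest gap, from 8.59 in the highest on library to 8.94 in the lowest off library.

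Promoters are shown for H1fx and H2afj, because both genes were called lower in on. They cover 250 bases before to 50 after the RefSeq start, on GRCm38.p6. For H1fx that start, at 87981482, lies 155 bases inside the GENCODE transcript given above, so 205 of the 300 bases shown, with the marked match, belong to that transcript. For H2afj it lies 4 bases inside. Capitals mark the CAAT-box core CCAAT, the core TATA box TATAAA and the GC-box core GGGCGG, searched on both strands, so that a match on the other strand shows as its reverse complement, and none overlapped another in these promoters.
H1fx, chr6:87981433-87981732, minus strand: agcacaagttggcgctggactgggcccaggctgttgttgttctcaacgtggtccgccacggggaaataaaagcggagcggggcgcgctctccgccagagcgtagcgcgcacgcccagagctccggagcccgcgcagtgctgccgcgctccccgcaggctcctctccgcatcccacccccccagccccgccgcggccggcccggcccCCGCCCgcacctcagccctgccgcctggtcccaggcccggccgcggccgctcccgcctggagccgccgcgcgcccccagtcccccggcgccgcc
H2afj, chr6:136807998-136808297, plus strand: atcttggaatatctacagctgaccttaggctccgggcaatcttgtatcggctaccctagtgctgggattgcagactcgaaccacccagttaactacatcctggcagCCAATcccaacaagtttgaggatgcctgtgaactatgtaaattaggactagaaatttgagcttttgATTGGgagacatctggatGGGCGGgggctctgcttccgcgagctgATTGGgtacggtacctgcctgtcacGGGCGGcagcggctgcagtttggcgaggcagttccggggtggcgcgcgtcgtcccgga
The promoter of H1fx held 1 GGGCGG, neither CCAAT nor TATAAA, and 40 CG pairs, at 77.7% GC. That of H2afj held 3 CCAAT, 2 GGGCGG, no TATAAA and 17 CG pairs, at 55.3% GC. Of the 25 genes 20 matched a RefSeq promoter (not Hist1h2bc, Hist2h2be, Hist2h4, H2afx and H3f3aos), and CCAAT lay in those of 13, TATAAA in those of 7 and GGGCGG in those of 14. Of 32851 promoters in the table, 37.4% held CCAAT, 13.6% TATAAA and 35.7% GGGCGG.

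The other linker histone genes were not called. H1f0 encodes H1.0, the linker histone of cells that have stopped dividing. It measured 12.11, 11.77, 11.86 and 11.92 in on replicates 1 to 4, against 11.99, 11.88 and 11.94 in off replicates 1 to 3, with a difference of -0.03 ± 0.06 (SE, limma adjusted p = 0.855). The off values lay inside the range of the on values, and on replicate 1 was the highest of all 7. With the GC and length trends removed the sign turned (0.05 ± 0.05, SE).

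Hist1h1c encodes H1.2 and is replication-dependent, with 840 annotated bases after its stem-loop. It measured 9.28, 8.91, 8.87 and 9.005 in on replicates 1 to 4, against 9.28, 9.07 and 9.28 in off replicates 1 to 3. On replicate 1 lay with the 2 highest off libraries and the other on libraries below all off libraries. The difference was -0.19 ± 0.08 (SE, limma adjusted p = 0.211), and it was called without on replicate 1 (-0.28, limma adjusted p = 0.00599). Hist1h1e, for H1.4, stood at 4.17 to 4.27 in on and 4.23 to 4.28 in off. Its annotated exons overlap those of Hist1h2be on the same strand, so the counts of both are uncertain.

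Within a library, the rlog value of H1fx minus that of H1f0 was -3.35 ± 0.18 in on (mean ± SD, n = 4) and -2.96 ± 0.04 in off (n = 3). It was lower in all 4 on libraries (-3.59 to -3.18) than in all off libraries (-3.00 to -2.92), with a difference of -0.40. A two-sided exact permutation test over the 35 groupings gave p = 0.0571, and p = 0.171 adjusted over the 6 pairs of related genes compared. The value of Hist1h1c minus H1f0 differed by -0.17 (exact permutation p = 0.0286, the smallest this design can give, and 0.171 adjusted). After the GC and length correction the H1fx minus H1f0 value differed by -0.15 (exact permutation p = 0.171, and 0.343 adjusted) and the Hist1h1c minus H1f0 value by -0.16 (exact permutation p = 0.0286, and 0.0858 adjusted).

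**Figure D3:**
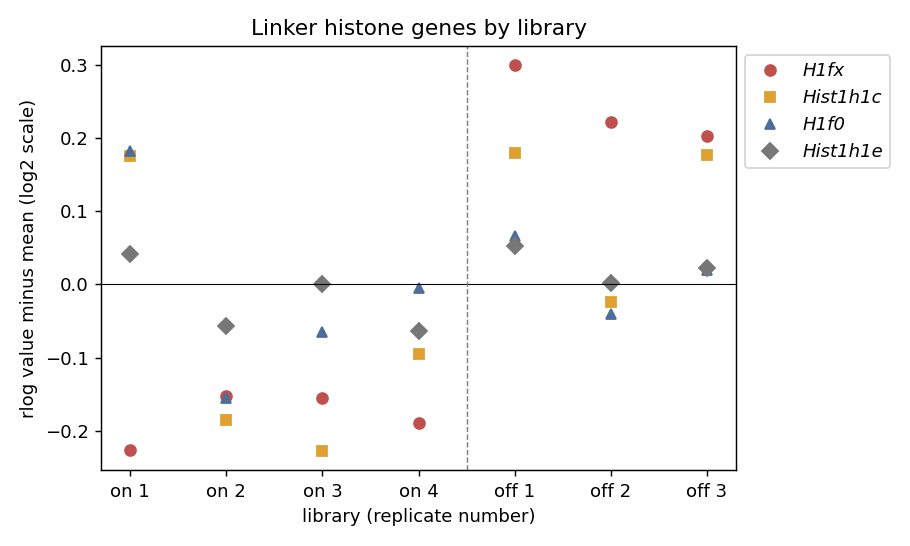
Each symbol is a linker histone gene; the y axis gives its rlog value minus its mean over 7 libraries (log2 scale) and the x axis the library, on left of the dashed line and off right of it. H1fx is below its mean in every on library, while H1f0 and Hist1h1c are above theirs in on replicate 1.

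Among H2A variants, neither gene for H2A.Z passed. H2afz measured 10.96, 10.94, 10.85 and 10.90 in on replicates 1 to 4, against 11.06, 11.12 and 10.97 in off replicates 1 to 3. The groups did not overlap, though off replicate 3 lay just above on replicate 1. The difference was -0.14 ± 0.04 (SE, limma adjusted p = 0.0999), and after the GC and length correction -0.05 ± 0.04 (SE, limma adjusted p = 0.513). Of its 50-base windows 69.6% also occur in transcripts of other genes, so its counts are uncertain.

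H2afv, the second H2A.Z gene, measured 9.88, 9.80, 9.81 and 9.82 in on replicates 1 to 4, against 9.93, 10.001 and 9.87 in off replicates 1 to 3. The groups overlapped through on replicate 1 and off replicate 3, and the difference was -0.11 ± 0.05 (SE, limma adjusted p = 0.208). None of its 50-base windows occur in another gene. The within-library value of H2afz minus H2afv was 1.08 ± 0.04 in on (SD, n = 4) and 1.12 ± 0.02 in off (SD, n = 3), with exact permutation p = 0.2 and 0.3 adjusted.

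H2afy and H2afy2 encode the macroH2A proteins, H2A forms with a large extra domain. H2afy measured 11.46, 11.41, 11.47 and 11.46 in on replicates 1 to 4, against 11.55, 11.58 and 11.55 in off replicates 1 to 3, and the groups did not overlap. Its difference was -0.11 ± 0.04 (SE, limma adjusted p = 0.106). It changed little with the GC and length correction, to -0.10 ± 0.03 (SE, limma adjusted p = 0.102). H2afy2 measured 9.37, 9.20, 9.30 and 9.32 in on replicates 1 to 4, against 9.37, 9.28 and 9.23 in off replicates 1 to 3. The groups overlapped, with a difference of 0.01 ± 0.05 (SE, limma adjusted p = 0.966). The within-library value of H2afy minus H2afy2 differed by -0.12 (exact permutation p = 0.0857, and 0.171 adjusted), or by -0.16 after the correction (exact permutation p = 0.0286, and 0.0858 adjusted).

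H3f3a and H3f3b encode the same protein, H3.3, which is placed in chromatin outside DNA replication. H3f3b measured 12.84, 12.74, 12.79 and 12.80 in on replicates 1 to 4, against 12.92, 12.76 and 12.76 in off replicates 1 to 3. H3f3a measured 10.49, 10.61, 10.49 and 10.65 in on, against 10.63, 10.71 and 10.53 in off. The groups overlapped in both genes, with differences of -0.02 ± 0.04 and -0.06 ± 0.05 (SE), and neither passed (limma adjusted p = 0.819 and 0.543). Their within-library values differed by -0.04 between groups (exact permutation p = 0.657). H3f3aos, the RNA opposite H3f3a, ran from 5.56 to 5.63 in on and from 5.60 to 5.68 in off. No source used here states whether reads were counted by strand, so reads of H3f3a and H3f3aos cannot be told apart where they overlap.

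**Figure D4:**
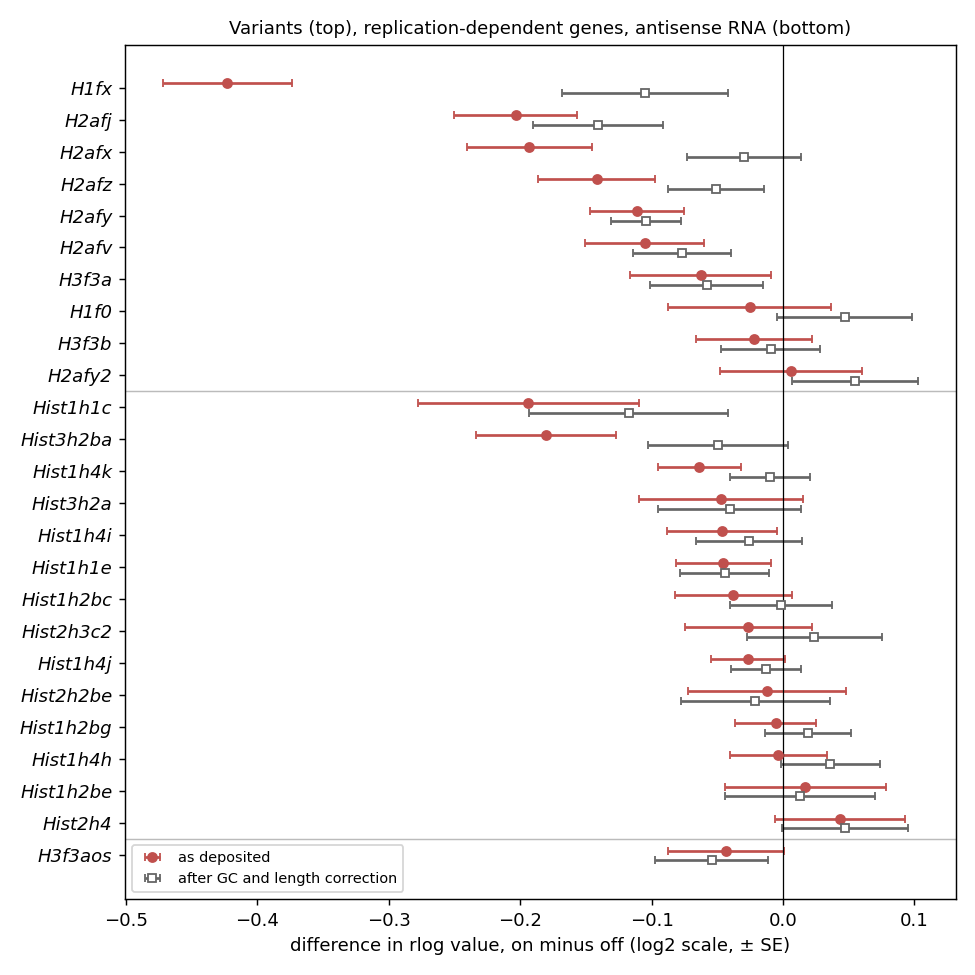
Points give the difference in rlog value, on minus off, with its SE for each histone gene, as deposited (filled circles) and after the GC and length correction (open squares). H1fx, H2afj and H2afx stand at -0.42, -0.20 and -0.19 as deposited, and at -0.10, -0.14 and -0.03 after the correction.

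Of the replication-dependent genes 0 of 14 passed in limma, with 2 (14.3%) at an unadjusted p under 0.05, Hist1h1c and Hist3h2ba, where 20.7% of all tested genes had such a p. Both were called lower by limma with array weights, as were 1134 of 17896 tested genes, and without on replicate 1, as were 8.02%. Hist3h2ba encodes an H2B of a small cluster on chromosome 11. It measured 8.15, 8.16, 8.08 and 8.12 in on replicates 1 to 4, against 8.26, 8.28 and 8.38 in off replicates 1 to 3. The groups did not overlap, and the difference was -0.18 ± 0.05 (SE, limma adjusted p = 0.0841), or -0.05 ± 0.05 after the GC and length correction. Its transcript of 614 bases shares 22.1% of its 50-base windows with the pseudogene Hist3h2bb-ps.

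Hist3h2a, an H2A gene 5151 bases away in that cluster, was not called either. It measured 8.67, 8.65, 8.69 and 8.72 in on replicates 1 to 4, against 8.89, 8.69 and 8.61 in off replicates 1 to 3. The off libraries lay on both sides of the on libraries, and the difference was -0.05 ± 0.06 (SE, limma adjusted p = 0.712). Its annotated exons overlap those of Trim17 on the same strand, with 31.5% of its windows shared, so its counts are uncertain. The within-library value of Hist3h2ba minus Hist3h2a differed by -0.13 (exact permutation p = 0.314).

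The other abundant replication-dependent genes encode forms of H2B. Hist1h2bc measured 9.57, 9.64, 9.65 and 9.56 in on replicates 1 to 4, against 9.67, 9.65 and 9.61 in off replicates 1 to 3. Hist2h2be measured 8.56, 8.54, 8.50 and 8.62 in on, against 8.64, 8.43 and 8.64 in off. Hist1h2be measured 7.65, 7.80, 7.84 and 7.79 in on, against 7.82, 7.67 and 7.77 in off. In all 3 the groups overlapped, and the differences were -0.04 ± 0.04, -0.01 ± 0.06 and 0.02 ± 0.06 (SE). No 50-base window of Hist2h2be occurs in another gene, so its counts do not rest on windows of that length shared with its relatives, while 30.6% of those of Hist1h2bc and 17.9% of those of Hist1h2be do occur elsewhere.

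The 5 H4 genes kept all encode the core histone H4. Their differences ran from -0.06 to 0.04 and none passed in limma, with 0 at an unadjusted p under 0.05. Hist2h4 measured 5.70, 5.85, 5.79 and 5.79 in on replicates 1 to 4, against 5.73, 5.69 and 5.79 in off replicates 1 to 3. Its 0.04 ± 0.05 (SE) was the largest positive difference among the 25 genes. Hist1h4k had the largest negative one among H4 genes at -0.06 ± 0.03 (SE, limma adjusted p = 0.267), with values of 3.62, 3.63, 3.57 and 3.63 in on and 3.73, 3.63 and 3.67 in off. Hist1h4i measured 5.38, 5.40, 5.35 and 5.44 in on replicates 1 to 4, against 5.43, 5.45 and 5.44 in off replicates 1 to 3, and the groups overlapped. Hist1h4k shares 71.5% of its 50-base windows with other genes, Hist1h4h 45.8%, Hist1h4i 28.9%, Hist1h4j 24.6% and Hist2h4 1.01%. At these low values the rlog transformation also narrows differences.

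Within a group the histone genes varied by library as well. Off replicate 1 held the highest value of 11 of the 25 genes and off replicate 2 that of 9, while on replicate 3 held the lowest value of 8. The mean deviation of the 10 variants was -0.03, -0.07, -0.08 and -0.05 in on replicates 1 to 4, against 0.10, 0.09 and 0.03 in off replicates 1 to 3. That of the 14 replication-dependent genes was -0.01, -0.02, -0.03 and -0.02 in on, against 0.06, -0.01 and 0.02 in off. Averaged over the 10 variants, the deviation was thus negative in every on library and positive in every off library. Averaged over the 14 replication-dependent genes it was not positive in off replicate 2. Single variants did not all follow: H1f0, H3f3b, H2afy2 and H2afv lay above their own means in on replicate 1. H3f3b and H2afy2 lay below theirs in off replicates 2 and 3. Across the 25 genes the difference ran with GC content at a Pearson's r of -0.58 and a Spearman's rho of -0.34, and across 17831 tested genes at -0.38 for both. With transcript length the rho was 0.12 across the 25 genes and 0.39 across the 17831. These are descriptions across genes that share the same 7 libraries.

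**Figure D5:**
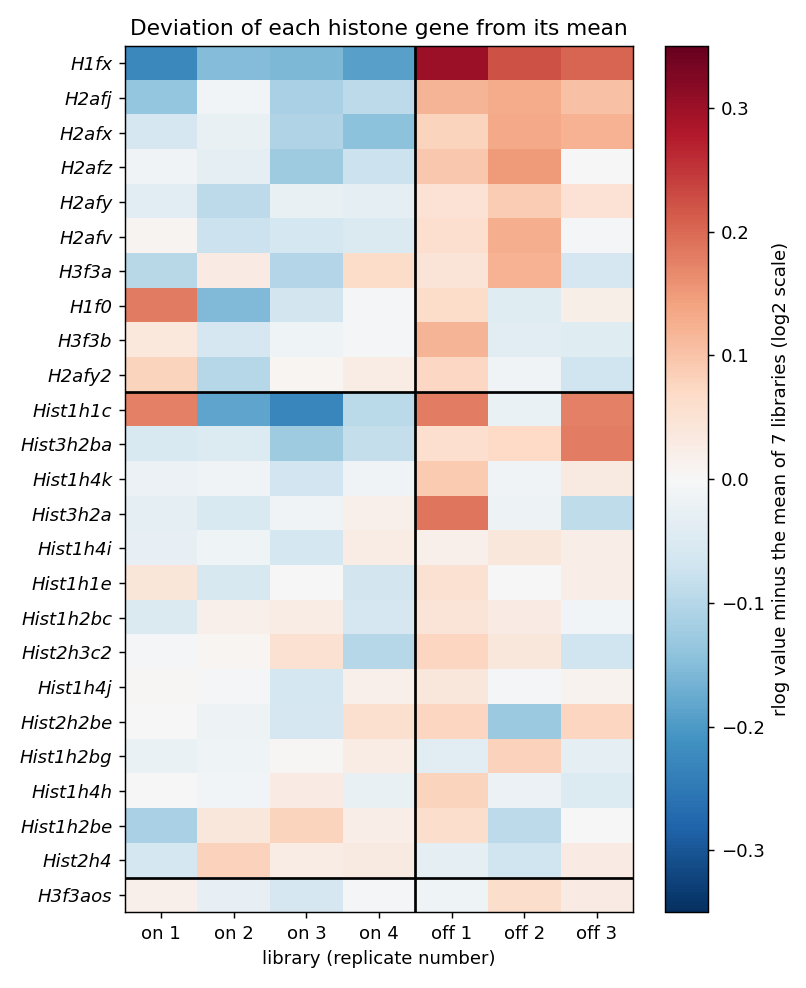
Colours give each histone gene's rlog value minus its mean over 7 libraries (log2 scale), with on libraries left of the vertical line and off libraries right of it; variants stand above the first horizontal line, replication-dependent genes below it and H3f3aos last. H1fx is below its mean in every on library and above it in every off library, while Hist1h1c and H1f0 are high in on replicate 1.

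Among 51 tested genes that make, process and place histones, 1 was called, Supt16. Without on replicate 1, 8 were called, all higher in on, with Npat, Ubn1, Ubn2, Atrx, Nasp, Ep400 and Srcap added, where 8.28% of all tested genes were called higher. With array weights 5 were called, all higher in on, where 1081 of 17896 tested genes were called higher. Counts at an unadjusted p under 0.05 in the lists below stand against 20.7% of all tested genes. For histone mRNA synthesis and 3′ end processing 15 genes were tested, with 0 called and 4 (26.7%) at an unadjusted p under 0.05, and a median difference of 0.03. Of the 15 genes 13 were positive and 2 negative. The largest difference of either sign was that of Lsm10, at -0.15 ± 0.06 (SE, limma adjusted p = 0.171). Slbp, which encodes the stem-loop binding protein, differed by 0.02 ± 0.05 (SE, limma adjusted p = 0.896). Npat, the coactivator of replication-dependent histone genes, differed by 0.11 ± 0.04 and Casp8ap2 by 0.14 ± 0.05 (SE, limma adjusted p = 0.153 and 0.155). Chaperones of H3 and H4 had a median of 0.03 over 12 genes with 0 called and 5 (41.7%) at an unadjusted p under 0.05. Of the 12 genes 8 were positive and 4 negative, among the latter Hira at -0.14 ± 0.05 (SE, limma adjusted p = 0.118). Ubn2, of the complex that places H3.3, differed by 0.29 ± 0.08, and Atrx, which places H3.3 at repeats, by 0.15 ± 0.04 (SE, limma adjusted p = 0.0573 and 0.0636). In both, on replicate 1 lay apart from the other on libraries, and both were called without it (limma adjusted p = 0.000156 and 0.00551).

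Supt16 encodes the large subunit of FACT, a chaperone of H2A and H2B, and was the 1 of 13 H2A-H2B chaperone genes that passed, higher in on. It measured 11.65, 11.63, 11.67 and 11.67 in on replicates 1 to 4, against 11.51, 11.51 and 11.43 in off replicates 1 to 3, without overlap. The difference was 0.17 ± 0.04 (SE, limma adjusted p = 0.0304), and it passed after the GC and length correction at 0.15 ± 0.03 (SE, limma adjusted p = 0.0428). It kept its call in 8 of 16 alternatives and lost it without a filter (limma adjusted p = 0.142) and without the intensity trend (limma adjusted p = 0.0537). It missed the threshold in 5 of 7 fits with 1 library left out, passing without on replicate 1 or off replicate 1, with adjusted p up to 0.121. The list's median was 0.02. Nap1l1, a chaperone of H2A and H2B, differed by 0.10 ± 0.04 (SE, limma adjusted p = 0.194).

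For exchange of H2A.Z 11 genes were tested, with 0 called and 3 (27.3%) at an unadjusted p under 0.05, and a median of -0.02. The ATPase genes Ep400 and Srcap differed by 0.14 ± 0.05 and 0.17 ± 0.07 (SE, limma adjusted p = 0.11 and 0.161), and both were called without on replicate 1 (limma adjusted p = 0.0104 and 0.0433). Proliferation genes had a median of -0.0005 over 17 genes, with 0 called in limma and 0 at an unadjusted p under 0.05. Among them Pcna, the sliding clamp of DNA replication, differed by -0.08 ± 0.04 and Mcm4, of the replicative helicase, by 0.06 ± 0.04 (SE, limma adjusted p = 0.265 and 0.489). Genes of young neurons had a median of -0.07 over 9 genes, with 0 called and 3 (33.3%) at an unadjusted p under 0.05. The transcription factor genes Dlx1 and Dlx2 differed by -0.26 ± 0.08 and -0.22 ± 0.07 (SE, limma adjusted p = 0.0956 and 0.0903). Both were called without on replicate 1 (limma adjusted p = 0.0196 and 0.0183), where Neurod1 was called higher, and Dlx1 also without on replicate 4 (limma adjusted p = 0.0443). Of 12 small RNAs without a poly(A) tail 2 were tested, Rn7sk at 0.07 ± 0.07 and Snora73b at -0.05 ± 0.03 (SE), and neither passed.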

How the data were processed

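RNA sequencing of 7 mouse brain libraries was deposited by the authors as rlog values on the log2 scale for 48526 Ensembl genes, without counts, so depth per library is unknown. Per the submitters' processing notes, the build GRCm38 and the tools DESeq2 1.16.1, STAR 2.5.2, cutadapt 1.9.1, Subread 1.5.3 and BWA 0.7.14-r1136 were used, with no role given for each. Per the labels' protocols, libraries came from a stranded kit for RNA with a poly(A) tail. Symbols were found for 48058 genes. The main model, run on the 17896 genes averaging at least 3, was limma (version 3.58.1, under R 4.3.3) with group as its term, an intensity trend and two-sided tests. The GC and length correction removed from each library a smooth trend (mgcv 1.9.3) in 3 classes of mean value, using the longest transcript in GENCODE M21, for 17831 genes (99.6%). Related genes were compared within libraries by exact permutation. The limma fit was tried on simulated data with noise drawn independently for each gene. The GC and length correction was tried there on a trend with transcript length. No GC trend was simulated, so how the methods handle one was not tested. No 2 libraries held identical values. Values are named for called genes, genes without overlap, the largest differences and highest means in each class, and the 2 smallest p of each list. Ubn1, Nasp, Neurod1, Hira and Lsm10 were named after their values were seen, and calls per list without a library were added then. Members, lists and tests were chosen with earlier results of these data known. Alternatives were other filters, scalings, variance settings, the replicate number as a block and each library left out; the additive correction was chosen after seeing the data.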

Additional observations from a re-analysis of the deposited data

Results flagged for a closer look

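The gap between the most extreme on library and its nearest neighbour was set against Dixon's critical value for 47 values. It was passed by 3 of them, where chance alone flags about 1 in 20 (2.35 of 47). Hist1h4k was lowest in on replicate 3 at 3.57, while on replicates 1, 2 and 4 held 3.62 to 3.63 and off held 3.63 to 3.73. Ubn2 was lowest in on replicate 1 at 11.58, while on replicates 2 to 4 held 11.89 to 11.96 and off held 11.44 to 11.63. Atrx was also lowest in on replicate 1, at 13.31, while on replicates 2 to 4 held 13.41 to 13.43 and off held 13.18 to 13.28. The off group, with 3 libraries, was too small for this test.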

How the results depend on the processing

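H1fx kept its call in 14 of 16 alternatives, losing it under both GC and length corrections, and was negative in all 16. Its sign could not turn under the other filters or without the intensity trend. These leave its difference at -0.4227 and change only SE and p. H2afj kept its call in 7 and H2afx in 4 of 16. Of 25 histone genes, 3 were called as reported, 1 without a filter, 6 with array weights, 1 with the replicate block, and 0 with the GC and length correction or its additive form. With 1 library left out 1 to 7 were called: 7 without on replicate 1, 2 without on replicate 2, and 1 without each of the others. Replication-dependent genes called were 2 with array weights and 0 to 2 with 1 library left out, the 2 being Hist1h1c and Hist3h2ba. Variants called were 1 without a filter, 1 with the replicate block, 0 under either correction, and 1 to 5 with 1 library left out. Of all tested genes, 466 in the main fit, 7 were called without a filter, 237 without the intensity trend, 2215 with array weights, 30 with the replicate block, 91 and 104 under the joint and additive corrections, and 43 to 2917 with 1 library left out (2917 without on replicate 1). The median difference of the replication-dependent genes was -0.0042 under the additive correction. That of the variants was -0.0545 under the joint and -0.0506 under the additive correction. The causes were not tested.

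No pairing by replicate number was seen: the deviations of same-numbered on and off libraries correlated at -0.23, -0.10 and 0.02. Those of differently numbered ones correlated at -0.19 to 0.30, so these values cannot exclude a pairing. Supt16 lost its call with the replicate block (limma adjusted p = 0.248). As only on has a replicate 4, the block takes up that library entirely. Its differences therefore equal those without on replicate 4, such as -0.4198 for H1fx in both. Only uncalled histone genes turned sign. Under median centring Hist1h4h stood at 0.0031 and Hist1h2bg at 0.001. Under array weights H2afy2 stood at -0.0021. Under the replicate block H2afy2 stood at -0.0021, Hist2h3c2 at 0.0029 and Hist1h4h at 0.0043. Under the joint correction Hist2h3c2 stood at 0.0238, Hist1h4h at 0.0358, Hist1h2bg at 0.019 and H1f0 at 0.0468. Under the additive correction Hist2h3c2 stood at 0.0196, Hist1h4h at 0.037, Hist1h2bg at 0.0155, H1f0 at 0.0414, H3f3b at 0.0017, Hist1h4k at 0.0072 and Hist1h2bc at 0.0137. With 1 library left out the ranges were -0.0806 to 0.0226 for Hist2h2be, -0.0685 to 0.0035 for Hist2h3c2, -0.0272 to 0.0435 for H2afy2, -0.1057 to 0.0332 for Hist3h2a, -0.0491 to 0.0306 for H3f3b, -0.029 to 0.0339 for Hist1h4h, -0.0265 to 0.0328 for Hist1h2bg, -0.0235 to 0.0569 for Hist1h2be and -0.09 to 0.0229 for H1f0. Without counts, the depth that limits the low genes is unknown.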
